A study of Nannochloropsis oceanica with 6 samples.

Results

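The comparison of the libraries taken after 2 days without nitrogen (N2) with those taken at day 0 (C0) was described across all genes of *Nannochloropsis oceanica* IMET1, a unicellular marine microalga that is grown for oil. It used 4 of the 6 messenger RNA libraries analysed here, 2 of N2 and 2 of C0, and the remaining pair was taken after 1 day without nitrogen (N1). Every sample was strain IMET1, for which the labels name no mutation or introduced gene, grown at 25 °C in modified f/2 medium with nitrate in a column reactor under continuous light of 80 µmol photons m-2 s-1 and bubbled with air. N2 cells were pelleted in the logarithmic phase, washed in medium lacking nitrogen, resuspended in such medium and kept for 2 days at 50 µmol photons m-2 s-1, and N1 cells were treated alike for 1 day. C0 cells were pelleted from the nitrate culture and sampled at once. Removal of nitrogen, washing, time and the lower light therefore differed together between N2 and C0, and their parts cannot be told apart. The study calls the libraries of a group biological replicates, while neither it nor the labels describe separate cultures. The p-values rest on the spread between libraries within N2, N1 and C0 together, estimated with information shared across genes. Replicate 2 of N2 was placed in its group by its title, since it carries no treatment label. Of 10569 genes in the files 9736 had a CPM, defined below, of at least 1 in at least 2 of the 6 libraries and were tested. A KEGG pathway was given for 2305 of the tested genes, a KOG entry for 4210 and a GO term for 5339.

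Microalgae take up nitrate and ammonium through membrane transporters, reduce nitrate by way of nitrite to ammonium, and fix ammonium into glutamine and glutamate. When nitrogen runs out, these cells are known to raise the capacity for scavenging nitrogen, to cut back the protein-rich machinery of translation and light capture, and to store fixed carbon as triacylglycerol and polysaccharide. *Nannochloropsis* binds its chlorophyll a in antenna proteins of a violaxanthin-containing type, which similarity searches name after the fucoxanthin proteins of diatoms, and it makes long polyunsaturated fatty acids by a chain of desaturases and elongases.

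The libraries held 6523021 and 6379149 estimated counts in N2, against 5031277 and 5198270 in C0. Levels are in CPM, the counts of a gene scaled to a common library total after TMM normalisation. Each change is a log2 fold change of N2 over C0, with an approximate SE, from an edgeR fit that took in all 6 libraries, and a gene rose or fell only where its p, adjusted by the Benjamini-Hochberg method over the 9736 genes, was below 0.05. By this rule 6806 genes changed (69.9%), of which 3410 rose (35% of those tested) and 3396 fell (34.9%), 1348 of the rises (13.8% of the genes tested) and 1064 of the falls (10.9%) being at least 2-fold, and 314 (3.23%) and 237 (2.43%) at least 4-fold. The CPM of the N2 and C0 libraries did not overlap for 84.8% of the genes, so a lack of overlap in a named gene says little by itself. The median log2 fold change over all genes tested was 0.0089 and the median SE 0.107. Named genes that nitrogen shortage is known to raise were used to check the labels, and in both N2 libraries the nitrate transporter, the nitrite reductase and the lipid droplet surface protein lay above both C0 libraries, with values given below. Ammonium transporters, also meant for this check, went both ways, as given below. Names come from the descriptions in the files and rest on similarity to proteins of other species, and the digits before the G of an identifier give the chromosome. A dagger marks, at its first mention, a gene whose estimated counts were fractional in at least 1 library, so that reads may have been shared with similar or overlapping loci. In bulk RNA of a culture, fewer cells with a transcript and less of it per cell cannot be told apart.

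Genes that bring in and reduce nitrate held some of the large rises among abundant transcripts. High affinity nitrate transporter 2.6 (NO14G02450†), which carries nitrate across the plasma membrane, had 11299.8 and 11321 CPM in N2, against 205 and 202 CPM in C0, a log2 fold change of 5.80 ± 0.020 (edgeR adjusted p = 2.21e-23). Ferredoxin-nitrite reductase (NO26G00710), which reduces nitrite to ammonium, had 6272 and 6601 CPM in N2, against 210.4 and 206 CPM in C0, a change of 4.95 ± 0.031. Nitrate reductase (NO14G02460), the step before it, had 3288 and 3649.5 CPM in N2, against 165 and 158 CPM in C0, a change of 4.42 ± 0.046. The fitted rises of these 3 genes were between 21.5-fold and 55.7-fold, and by length-scaled FPKM the transporter was the most abundant transcript with a named function in N2. Molybdenum cofactor biosynthesis protein 1 (NO24G02300), which acts early in making the cofactor of nitrate reductase, had 2629 and 2473 CPM in N2, against 99.6 and 103 CPM in C0, a change of 4.65 ± 0.047. Not every member of these families moved this way. High affinity nitrate transporter 2.7 (NO30G01230) had 26.6 and 26.4 CPM in N2, against 40.1 and 44.2 CPM in C0, and fell by 0.67 on the log2 scale. A second nitrate reductase (NO25G00630) had 167 and 166 CPM in N2, against 229 and 215 CPM in C0, and fell by 0.41.

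Carriers of reduced nitrogen split as well. An ammonium transporter (NO09G03110) had 5604 and 6073 CPM in N2, against 434 and 434 CPM in C0, a change of 3.75 ± 0.032. An ammonium transporter of the Rh type (NO30G00980) had 700.5 and 760.0 CPM in N2, against 41.3 and 43.5 CPM in C0, a change of 4.11 ± 0.058. The urea-proton symporter DUR3 (NO29G01570), which takes up urea, had 646 and 648 CPM in N2, against 71.7 and 74.5 CPM in C0, a change of 3.15 ± 0.047. These 3 transporters were far higher in both N2 libraries. Another ammonium transporter (NO20G02430) was lower there, with 67.5 and 71.7 CPM in N2, against 299 and 280.5 CPM in C0, a change of -2.06 ± 0.066. Of the enzymes that fix ammonium, glutamine synthetase (NO07G03230) had 2108 and 2306 CPM in N2, against 551 and 527 CPM in C0, a change of 2.04 ± 0.039. Its partner, glutamate synthase (NO08G04050), had 2712 and 2939 CPM in N2, against 537 and 507 CPM in C0, a change of 2.44 ± 0.039. Both steps of this cycle were thus higher in each N2 library. The NAD-specific glutamate dehydrogenase (NO01G02980), which can release ammonium from glutamate, had 229.9 and 259 CPM in N2, against 76.2 and 79.8 CPM in C0, a change of 1.65 ± 0.073. DUR3, the Rh-type transporter and this dehydrogenase were chosen after their values were seen. Urease, which frees ammonium from urea, was annotated at NO02G06110†, with 396 and 370.2 CPM in N2, against 55.8 and 56.9 CPM in C0. A further urease locus (NO02G06090†) had 356 and 347 CPM in N2, against 70.5 and 71.0 CPM in C0. Both urease loci rose, by 2.77 and 2.31 on the log2 scale, and the accessory protein G that helps to load their nickel (NO17G01380) rose by 1.85, while accessory protein D (NO14G02290) had 57.0 and 57.9 CPM in N2, against 99.6 and 112 CPM in C0, and fell by 0.88.

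**Figure D1:**
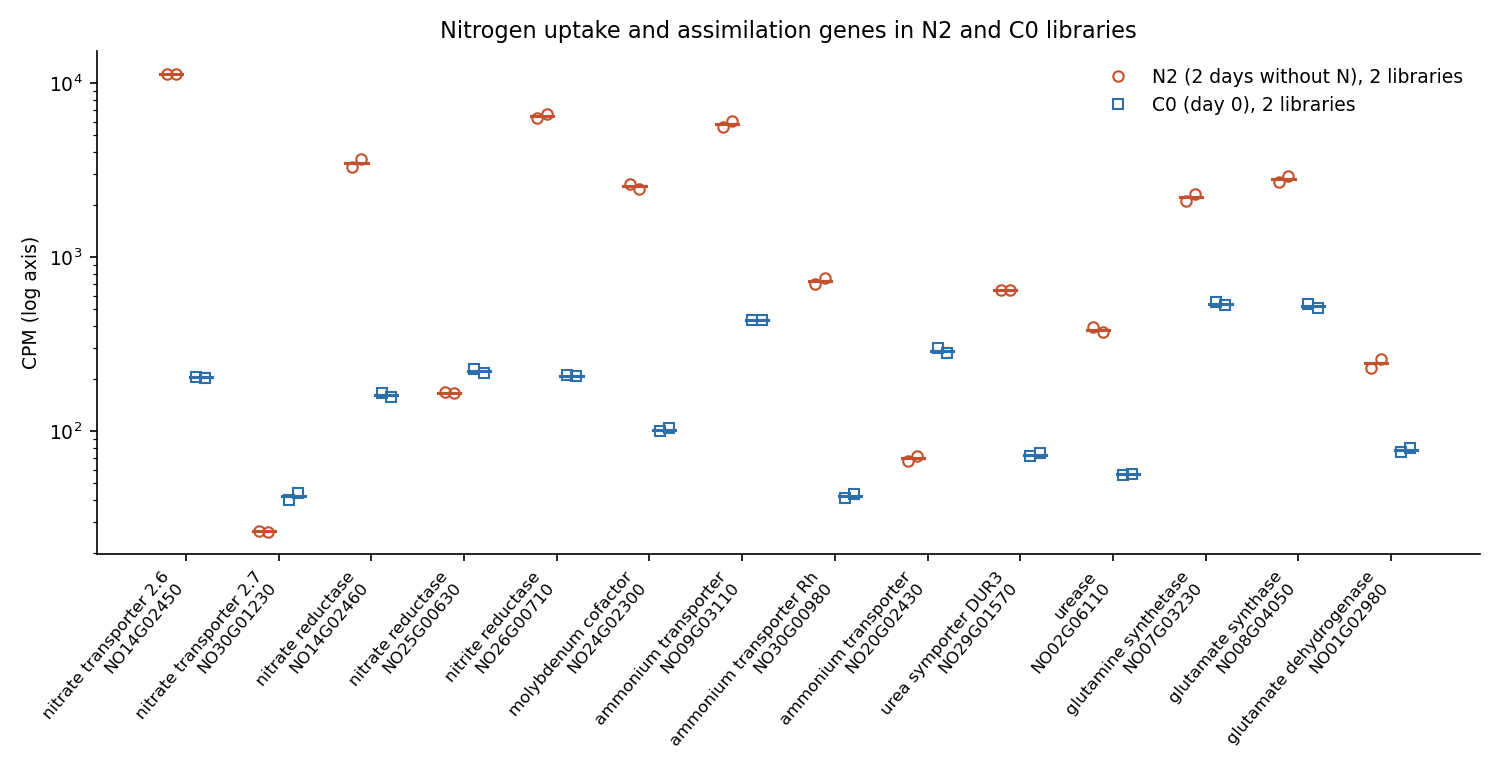
CPM on a log axis of 14 genes of nitrogen uptake and assimilation, 2 N2 libraries (left mark of each gene) and 2 C0 libraries (right mark). The N2 points lie above the C0 points in 11 genes and below them in the ammonium transporter NO20G02430, the nitrate transporter NO30G01230 and the nitrate reductase NO25G00630.

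Over the list searched by description for nitrogen uptake and assimilation, 12 of 18 tested members rose and 5 fell, with a median log2 fold change of 1.69, beside 0.0089 over all genes. Its falls include a folylpolyglutamate synthase (NO12G02010), which serves folate metabolism and was caught by the search term, and which fell by 1.30. In the KEGG pathway of nitrogen metabolism 8 of 14 tested members rose and 4 fell, with a median of 1.47, and its genes took up 2.97% and 3.06% of the counts of the N2 libraries, against 0.476% and 0.465% in C0. The member that fell most there is not an enzyme of nitrogen assimilation: a putative carbonic anhydrase 3 (NO20G00630), which interconverts carbon dioxide and bicarbonate, had 302 and 309 CPM in N2, against 1479 and 1439 CPM in C0, a change of -2.26 ± 0.041.

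Among genes of purine and pyrimidine metabolism some rose and others fell, as over all genes. Amidophosphoribosyltransferase (NO03G03620†), which commits glutamine nitrogen to purine synthesis, had 1491 and 1479.7 CPM in N2, against 91.3 and 90.2 CPM in C0, a change of 4.03 ± 0.038, while a second gene of the same description (NO13G01620) had 132 and 123 CPM in N2, against 274 and 279.9 CPM in C0, a change of -1.12 ± 0.057. The rise of 4.03 is also the largest of other glycan degradation and of sphingolipid metabolism in KEGG. The locus NO03G03620 therefore appears to be listed there as well, and its rise cannot be assigned to purine synthesis alone. The later purine enzyme phosphoribosylformylglycinamidine cyclo-ligase (NO04G00820) had 298 and 302 CPM in N2, against 63.9 and 56.3 CPM in C0, and rose by 2.32. Guanylate kinase 2 (NO04G01360), which phosphorylates GMP, had 36.5 and 36.8 CPM in N2, against 151 and 145 CPM in C0, and was 4.04-fold lower in N2. Of the KEGG purine pathway 52 of 118 tested members rose (44.1%) and 41 fell (34.7%), beside 35% and 34.9% of all genes. Of these, 22 rises and 10 falls were at least 2-fold, and the median was 0.18. Xanthine dehydrogenase (NO15G02770), of purine breakdown, had 605 and 602 CPM in N2, against 378 and 371 CPM in C0, and rose by 0.69. Protein PYR1-3 (NO01G04780), a multi-step enzyme that begins pyrimidine synthesis in the slime mould from which it takes its name, had 527 and 546 CPM in N2, against 1499.7 and 1504 CPM in C0, and fell by 1.49.

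Over the KEGG pathway of arginine and proline metabolism 9 of 26 tested members rose and 14 fell, and its 4 largest falls were in polyamine and proline synthesis. S-adenosylmethionine decarboxylase (NO29G00960), which supplies the aminopropyl group of polyamines, had 287 and 296 CPM in N2, against 1092 and 1036 CPM in C0, a change of -1.87 ± 0.046. Spermidine synthase 1 (NO03G01510) had 23.5 and 21.7 CPM in N2, against 88.5 and 80.6 CPM in C0, and fell by 1.90. Ornithine decarboxylase (NO05G00760), which makes putrescine, had 166 and 151 CPM in N2, against 435 and 424 CPM in C0, and fell by 1.44. These 3 genes of polyamine synthesis were all lower in both N2 libraries. Pyrroline-5-carboxylate reductase (NO02G00970), the last step of proline synthesis, fell by 2.13, with 101 and 111 CPM in N2, against 471 and 457 CPM in C0. Proline dehydrogenase 1 (NO08G00440), which breaks proline down, had 473 and 473 CPM in N2, against 151 and 152 CPM in C0, and rose by 1.65. The largest rise of the pathway was in a gene described as diaminopimelate decarboxylase (NO23G01810†). It had 12.6 and 13.3 CPM in N2 and 0 in both C0 libraries, at least 22.1-fold higher against a floor of 3 counts per library. KEGG does not list this locus under lysine synthesis, where the largest fitted change was 0.933. Its fitted change of 9.17 is also the largest of glutathione metabolism, so its description and its pathways differ. In synthesis of phenylalanine, tyrosine and tryptophan 5 of 23 rose and 14 fell, in histidine metabolism 2 of 14 rose and 9 fell, and in lysine synthesis 5 of 16 rose and 10 fell. EPSP synthase (NO08G02910†), of the shikimate route to the aromatic amino acids, had 88.3 and 95.8 CPM in N2, against 245 and 235 CPM in C0, and fell by 1.38. In degradation of valine, leucine and isoleucine, on the other hand, 28 of 44 tested members rose and 5 fell, with a median of 0.54. An acyl-coenzyme A dehydrogenase of that pathway (NO04G04420†) had 3402 and 3626 CPM in N2, against 1221 and 1206 CPM in C0, and rose by 1.53. Methylmalonyl-CoA mutase (NO08G02030), which feeds their carbon into the citrate cycle, had 214 and 224 CPM in N2, against 70.5 and 60.7 CPM in C0, and rose by 1.74.

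The citrate cycle was the KEGG pathway with the second highest median after nitrogen metabolism, among the 97 pathways with at least 10 tested genes. In it 30 of 37 tested members rose and 4 fell, 19 of the rises and none of the falls being at least 2-fold, with a median of 1.03. The pathway held 1.39% and 1.41% of the counts of the N2 libraries, against 0.693% and 0.680% in C0. The NADP isocitrate dehydrogenase (NO03G02920), which yields 2-oxoglutarate, the carbon skeleton that accepts ammonium, had 992 and 1041 CPM in N2, against 214 and 217 CPM in C0, a change of 2.24 ± 0.043. The iron-sulfur subunit of succinate dehydrogenase (NO01G05020†), shared with the respiratory chain, had 287 and 266 CPM in N2, against 58.2 and 58.2 CPM in C0, a change of 2.25 ± 0.066. Both were higher in each N2 library than in either C0 library. The cytoplasmic malate dehydrogenase locus NO05G03790† had 26.1 and 29.2 CPM in N2 and no count in C0, but its neighbour NO05G03780† has the same description, and over both loci there were 233 and 245 CPM in N2, against 140.5 and 144.9 CPM in C0. The 4 falls of the pathway were all under 2-fold. The probable 2-oxoglutarate dehydrogenase component DHKTD1 (NO16G00280) fell by 0.73, a soluble pyridine nucleotide transhydrogenase (NO20G01600†), which is no enzyme of the cycle itself, fell by 0.72 and a citrate synthase described as peroxisomal (NO19G01880†) fell by 0.17 (edgeR adjusted p = 0.0433). The call of the citrate synthase was lost without C0 replicate 1, C0 replicate 2 or N2 replicate 1, with edgeR adjusted p of 0.188, 0.0541 and 0.372.

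Both enzymes of the glyoxylate shunt, which lets acetyl-CoA carbon be built into sugars, were higher in N2. Isocitrate lyase (NO06G01840†) had 1591 and 1579.9 CPM in N2, against 419 and 427 CPM in C0, a change of 1.91 ± 0.038. Malate synthase (NO02G01090†, named as its partner after its values were seen) had 1109 and 1147 CPM in N2, against 388 and 390.4 CPM in C0, a change of 1.53 ± 0.038. Over the KEGG pathway of glyoxylate and dicarboxylate metabolism 29 of 41 tested members rose and 5 fell, with a median of 0.80, and without either C0 library 3 of its members fell.

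In glycolysis and gluconeogenesis 41 of 68 tested members rose and 14 fell, with a median of 0.52. A fructose-1,6-bisphosphatase described as chloroplastic (NO10G02230), which drives sugar synthesis, had 177 and 189 CPM in N2, against 22.4 and 20.1 CPM in C0, a change of 3.11 ± 0.086. Pyruvate decarboxylase 4 (NO04G01610†), which makes acetaldehyde, had 369.7 and 359 CPM in N2, against 42.7 and 50.4 CPM in C0, a change of 2.97 ± 0.070. The pyrophosphate-dependent phosphofructokinase subunit at NO09G03890 had 45.6 and 43.3 CPM in N2, against 9.33 and 13.0 CPM in C0, and rose by 1.99. All 3 were between 3.96-fold and 8.62-fold higher in N2. The falls were led by the NADP-dependent glyceraldehyde-3-phosphate dehydrogenase (NO01G04930), which yields NADPH, with 233 and 232 CPM in N2, against 986 and 1011 CPM in C0, a change of -2.10 ± 0.044. Aldose 1-epimerase (NO01G04160) fell by 1.51, and a further glyceraldehyde-3-phosphate dehydrogenase (NO09G03360) fell by 1.16. A fructose-bisphosphate aldolase among the most abundant transcripts of N2 (NO19G01750) had 1204 and 1260.0 CPM in N2, against 341 and 343 CPM in C0, and rose by 1.85. In pyruvate metabolism 35 of 52 tested members rose and 8 fell, and in carbon fixation 29 of 45 tested members rose and 8 fell, with medians of 0.49 and 0.48. A mitochondrial alanine aminotransferase (NO07G03820), which passes amino groups between alanine and glutamate and is counted under carbon fixation by KEGG, had 285 and 272 CPM in N2, against 49.6 and 50.5 CPM in C0, and rose by 2.48.

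**Figure D2:**
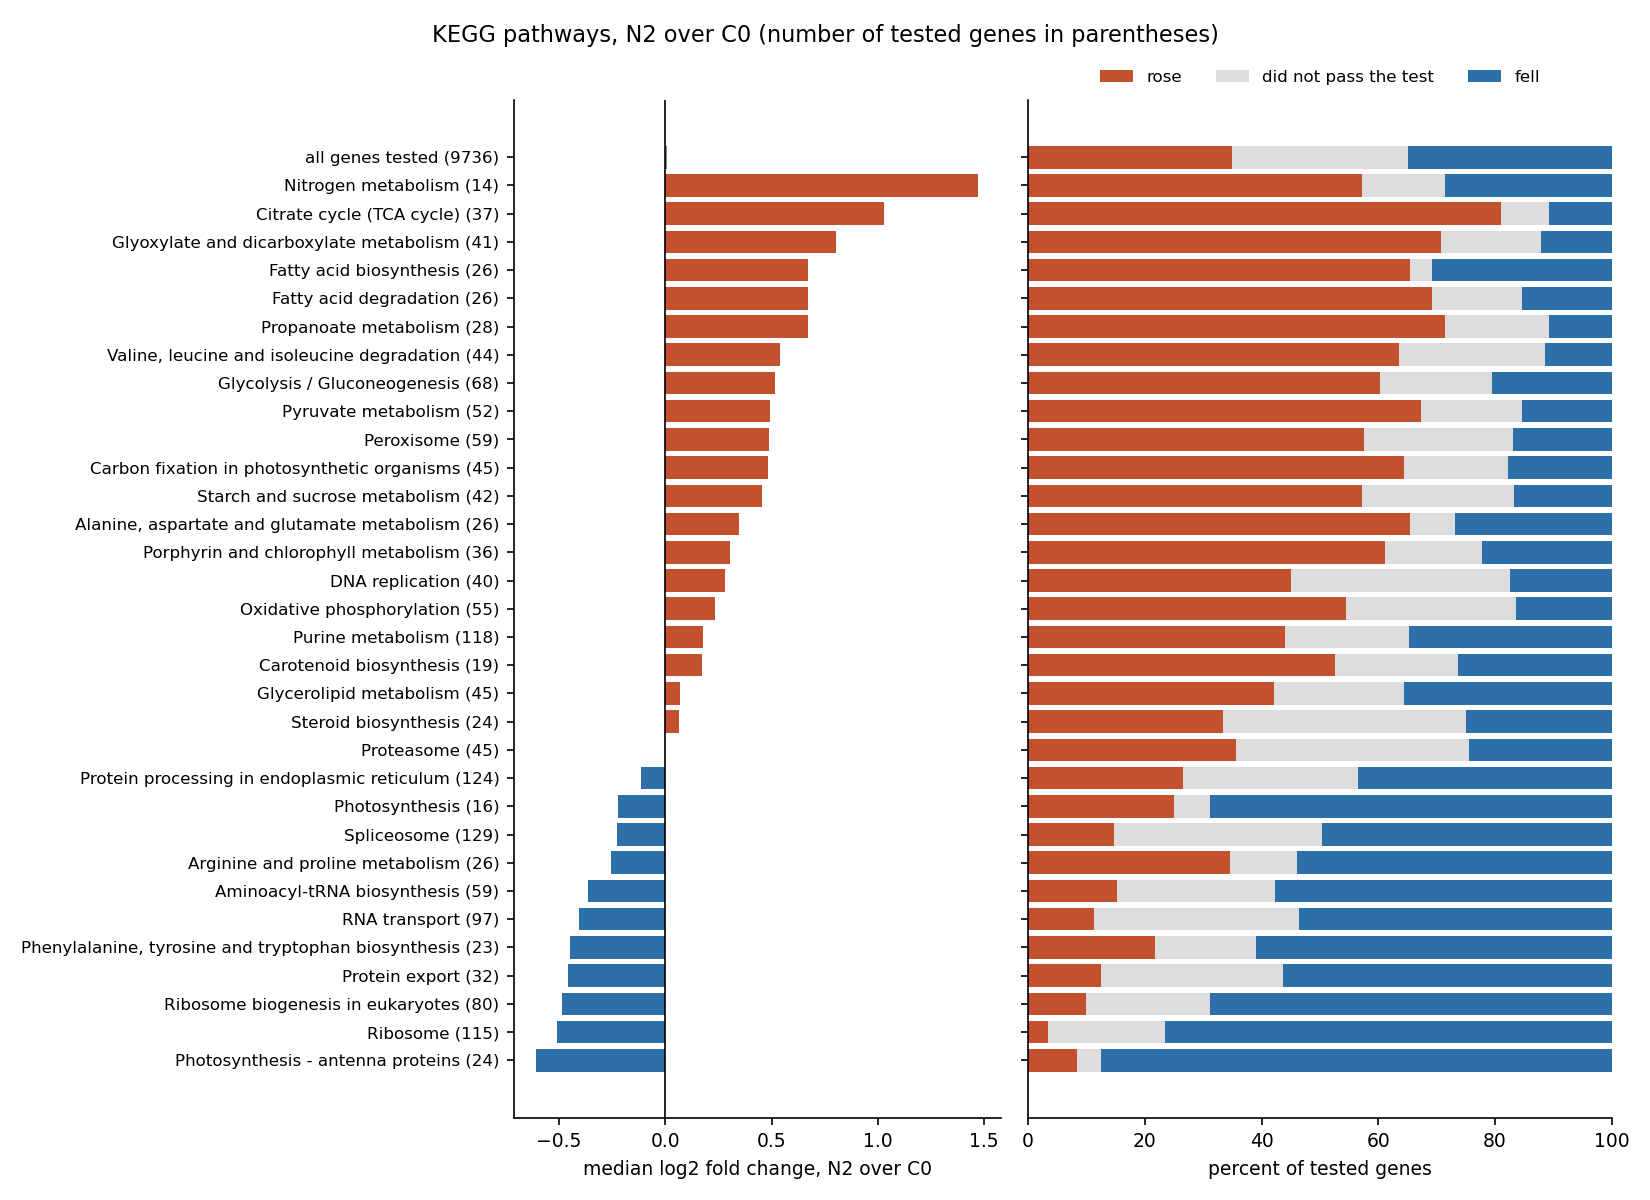
Left, median log2 fold change of N2 over C0 of 32 of the 97 KEGG pathways, picked after their values were seen and ordered by that median. Right, percent of each pathway's tested genes that rose, did not pass the test, or fell, with the shares over all genes (35% and 34.9%) as the top bar. Nitrogen metabolism and the citrate cycle have the highest medians (1.47 and 1.03), and the antenna proteins and the ribosome lie at the low end (-0.61 and -0.51).

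Lipid genes were described on the list that the study names by identifier. The study described these genes on the same libraries, so their direction is no independent evidence. The 4 desaturases were all far lower in N2. The delta-12 desaturase (NO11G02480), which adds the second double bond to oleate, had 79.3 and 76.6 CPM in N2, against 1239 and 1308 CPM in C0, a change of -4.03 ± 0.053. An acyl-lipid (9-3) desaturase (NO28G00700†) had 74.5 and 74.0 CPM in N2, against 717 and 699 CPM in C0, a change of -3.25 ± 0.052. A gene described as delta-12 desaturase fat-2 (NO14G02790) had 70.8 and 72.1 CPM in N2, against 683 and 668 CPM in C0, a change of -3.24 ± 0.053. The delta-5 desaturase A (NO16G02680), which acts late in making eicosapentaenoic acid, had 114 and 123 CPM in N2, against 825 and 823 CPM in C0, a change of -2.80 ± 0.055. All 4 thus stood between 6.95-fold and 16.3-fold below C0. Over all 28 tested desaturases and elongases 8 rose and 16 fell, with a median of -0.28. The rises included an acyl-lipid (8-3) desaturase B (NO06G00120), with 116 and 103 CPM in N2, against 37.7 and 37.1 CPM in C0, a change of 1.55 ± 0.086. An acyl-lipid (7-3) desaturase (NO01G04670) had 244 and 252 CPM in N2, against 101 and 97.8 CPM in C0, a change of 1.32 ± 0.055. Stearoyl-CoA desaturase 5 (NO16G01570), which adds the first double bond, was lower again, with 245 and 243 CPM in N2, against 1304 and 1322 CPM in C0, a change of -2.43 ± 0.042. A very-long-chain 3-oxoacyl-CoA reductase (NO10G02030†), of the elongase complex, rose by 1.36.

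Of the 11 genes the study names for fatty acid synthesis 5 rose and 6 fell. Acetyl-CoA carboxylase (NO09G00220), which makes malonyl-CoA, had 1519 and 1641 CPM in N2, against 797 and 774 CPM in C0, a change of 1.01 ± 0.037. The hydroxyacyl dehydratase (NO16G02130) had 101 and 94.5 CPM in N2, against 38.1 and 42.7 CPM in C0, and rose by 1.28. The enoyl reductase (NO23G00560), which ends each round of elongation, had 251 and 256 CPM in N2, against 151 and 153 CPM in C0, and rose by 0.74. Of the acyl carrier proteins, which hold the growing chain, NO29G00550 had 71.6 and 59.6 CPM in N2, against 44.9 and 47.3 CPM in C0, and rose by 0.51. The other, NO30G00840†, is identified by the study alone and had 852 and 791 CPM in N2, against 747 and 747 CPM in C0, a rise by 0.14. The condensing enzymes went the other way. The 3-oxoacyl synthase 2 (NO04G04430), which joins 2-carbon units to the chain, had 45.6 and 49.4 CPM in N2, against 125 and 136 CPM in C0, a change of -1.46 ± 0.075. Synthase 3 (NO28G00420), which starts the chain, had 35.0 and 38.5 CPM in N2, against 99.4 and 95.5 CPM in C0, a change of -1.41 ± 0.081. A further synthase (NO28G00410) fell by 0.31, the malonyl transacylase (NO07G02760), which loads the carrier protein, fell by 0.50, and a polyketide synthase-like gene that the study calls a type I synthase (NO11G02690) fell by 0.26. A second gene under that name (NO03G00560), a WD repeat protein by its description, had 38.3 and 37.1 CPM in N2, against 47.2 and 47.5 CPM in C0, and fell by 0.33 (edgeR adjusted p = 0.0212). Its call was lost without any of the libraries of N2 or C0, with edgeR adjusted p between 0.0527 and 0.0783, and that of NO30G00840 without N2 replicate 1 (edgeR adjusted p = 0.0901). In the KEGG pathway of fatty acid biosynthesis 17 of 26 tested members rose and 8 fell, with a median of 0.67. Its largest rise was in a gene described as the reducing polyketide synthase hmp8 (NO01G02200), with 818 and 868 CPM in N2, against 299.9 and 298 CPM in C0, 2.82-fold higher.

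All 5 genes of triacylglycerol assembly and lipid droplets on the study's list rose. The lipid droplet surface protein (NO11G02550), which coats the stored oil, had 3268 and 3217 CPM in N2, against 1298 and 1291 CPM in C0, a change of 1.32 ± 0.023. A lysophosphatidic acid acyltransferase (NO28G01540†) had 75.3 and 83.3 CPM in N2, against 22.8 and 23.2 CPM in C0. The acyltransferase that the study assigns to glycerol-3-phosphate (NO12G00800) had 381 and 389 CPM in N2, against 189 and 189 CPM in C0. Phosphatidate phosphatase (NO05G01140†), which makes diacylglycerol, had 104 and 108 CPM in N2, against 45.7 and 35.2 CPM in C0. Lastly, phospholipid:diacylglycerol acyltransferase (NO13G01310), which moves an acyl chain from a membrane lipid to it, had 341 and 366 CPM in N2, against 172 and 183 CPM in C0. These 4 genes rose by between 0.99 and 1.78 on the log2 scale, with no overlap of the groups. Outside that list, a 2-acylglycerol acyltransferase (NO19G01680) had 71.5 and 66.6 CPM in N2, against 13.7 and 14.6 CPM in C0, a change of 2.29 ± 0.11. Diacylglycerol acyltransferase 2D (NO01G04220), of the last step of oil synthesis, had 58.5 and 58.7 CPM in N2, against 102 and 108 CPM in C0, and fell by 0.84. The acyltransferase 2 locus NO01G01000† had 8.72 and 13.8 CPM in N2, against 47.2 and 50.4 CPM in C0, but its neighbour NO01G00990† carries the same description, the counts of both are fractional in part, and summed over both there were 122 and 125 CPM in N2, against 129.8 and 137 CPM in C0. The monogalactosyldiacylglycerol synthase (NO11G02470), which makes the main lipid of thylakoids, had 119 and 118 CPM in N2, against 199 and 202 CPM in C0, and fell by 0.76. Over the 26 genes of glycerolipid assembly found by description 11 rose and 9 fell, with a median of 0.0059, close to that of all genes.

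**Figure D3:**
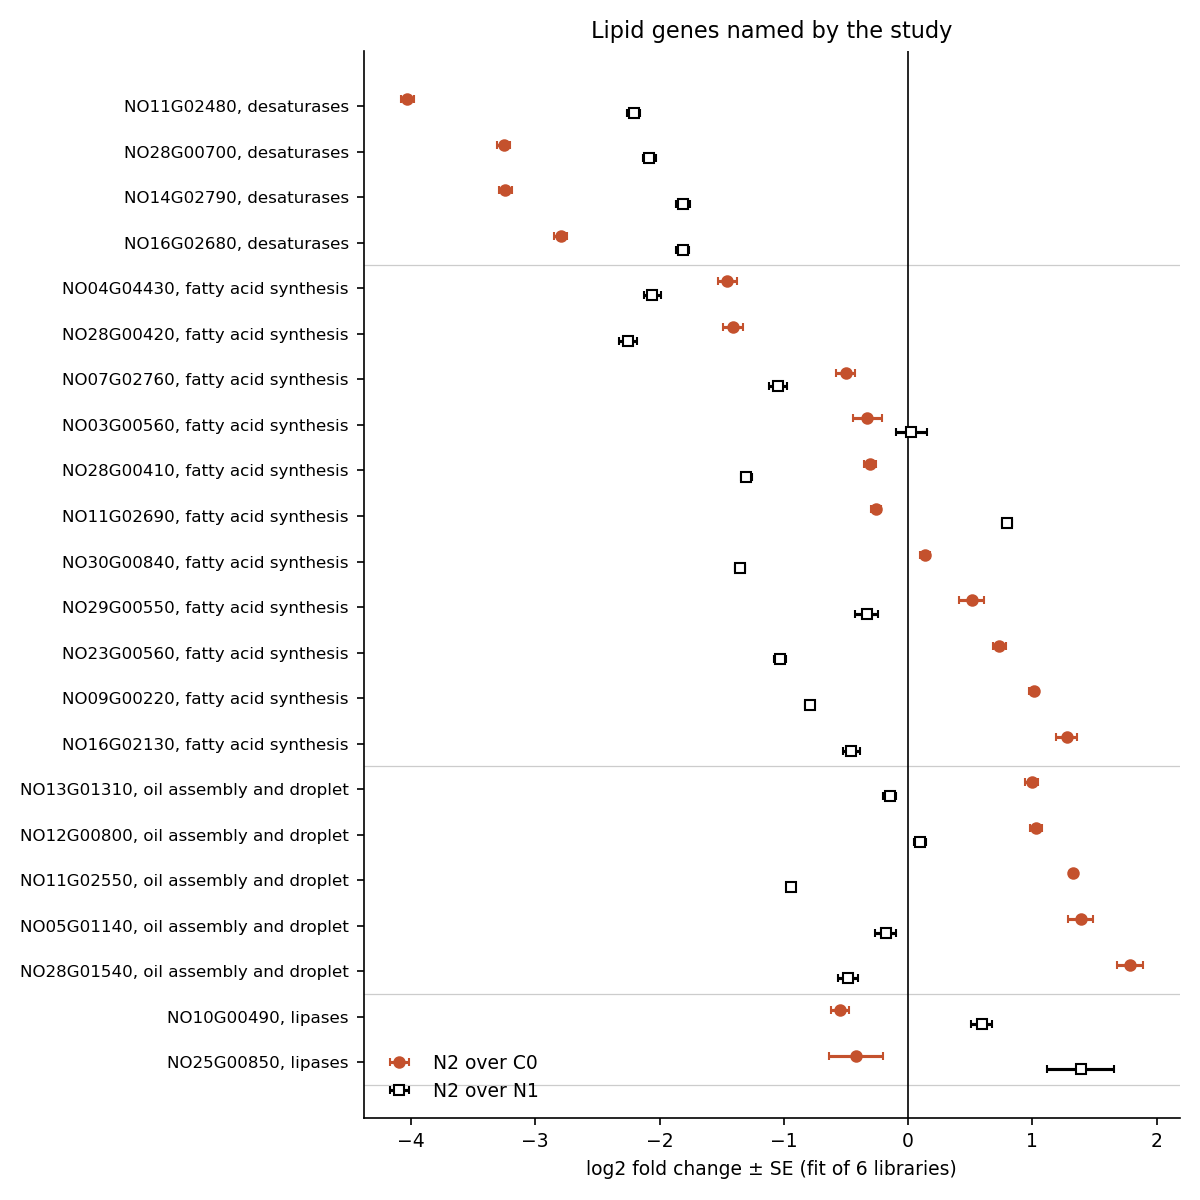
Log2 fold changes ± SE of the 22 lipid genes that the study names, N2 over C0 (filled, above) and N2 over N1 (open, below) for each gene. The 4 desaturases lie between -4.03 and -2.80 for N2 over C0 and below 0 for N2 over N1, while the 5 genes of oil assembly lie between 0.99 and 1.78 for N2 over C0.

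Genes of lipid breakdown were also mostly higher. In fatty acid degradation 18 of 26 tested members rose and 4 fell, and among the peroxisome genes 34 of 59 tested members rose and 10 fell, with medians of 0.67 and 0.49. The peroxisomal acyl-coenzyme A oxidase 1 (NO18G02010), the first step of peroxisomal beta-oxidation, had 78.7 and 69.4 CPM in N2, against 23.6 and 21.6 CPM in C0, a change of 1.71 ± 0.11. The alpha subunit of the mitochondrial trifunctional enzyme (NO22G00670), which carries the middle steps, had 444 and 475 CPM in N2, against 153 and 158 CPM in C0, a change of 1.56 ± 0.053. Both were higher in N2, 3.27-fold and 2.96-fold. Glutaryl-CoA dehydrogenase (NO16G01540), of lysine breakdown, had 105 and 110.2 CPM in N2, against 185 and 184 CPM in C0, and fell by 0.78. Of 34 genes described as lipases 17 rose and 9 fell. A gene described only as lipase (NO30G00620) had 225 and 229.7 CPM in N2, against 17.5 and 17.8 CPM in C0, a change of 3.69 ± 0.077. Phospholipase B1 (NO01G02430) had 50.4 and 47.5 CPM in N2, against 4.17 and 8.81 CPM in C0, a change of 2.90 ± 0.20. Phospholipase ABHD3 (NO21G02500) had 40.0 and 36.2 CPM in N2, against 155 and 152 CPM in C0, and fell by 2.01. Of the putative triacylglycerol lipases that the study names, SDP1 (NO10G00490), which mobilises seed oil in plants, had 114 and 107 CPM in N2, against 165 and 158 CPM in C0, a change of -0.55 ± 0.072. The other (NO25G00850†) had 9.75 and 9.17 CPM in N2, against 12.5 and 12.8 CPM in C0, a change of -0.42 ± 0.22 that did not pass the test (edgeR adjusted p = 0.0984).

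Antenna proteins, which gather light for the photosystems, were lower as a group, whereas the synthesis of the chlorophyll they bind was higher. Of the KEGG antenna proteins 2 of 24 tested members rose and 21 fell, with a median of -0.61, the lowest of the 97 pathways. They held 0.943% and 0.971% of the counts of the N2 libraries, against 1.70% and 1.71% in C0. The largest falls were in fucoxanthin-chlorophyll a-c binding proteins E at NO09G00450†, with 240.5 and 247 CPM in N2, against 1512 and 1506 CPM in C0, a change of -2.63 ± 0.046, and at its neighbour NO09G00440†, with 271 and 289 CPM in N2, against 1656 and 1656 CPM in C0, a change of -2.56 ± 0.057. Protein A at NO25G00860† had 394 and 402 CPM in N2, against 2034 and 2016 CPM in C0, a change of -2.35 ± 0.040. In these 3 genes both N2 libraries lay below both C0 libraries, and all had fractional counts. The most abundant antenna transcript in C0 by FPKM (NO02G05990) had 467 and 474 CPM in N2, against 1115 and 1126 CPM in C0, and fell by 1.25. The 2 members that rose changed little. NO07G03080 had 56.9 and 54.0 CPM in N2, against 41.7 and 41.9 CPM in C0, and rose by 0.41, and NO16G01490 had 238 and 243 CPM in N2, against 202 and 208 CPM in C0, and rose by 0.23.

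In the KEGG photosynthesis pathway 4 of 16 tested members rose and 11 fell, with a median of -0.22. Cytochrome c6 (NO05G04730), a soluble carrier to photosystem I, had 13.4 and 9.93 CPM in N2, against 32.6 and 32.0 CPM in C0, and fell by 1.46. For the cytochrome b6-f iron-sulfur protein, which links the photosystems, the locus NO05G02060† had 82.3 and 149 CPM in N2, against 221 and 163 CPM in C0, a change of -0.73 ± 0.19 with a wide spread between the N2 libraries, and was not called without C0 replicate 1 (edgeR adjusted p = 0.0592). Its neighbour of the same description (NO05G02050†), among the most abundant transcripts of C0, had 1275 and 1203 CPM in N2, against 1645 and 1798 CPM in C0, and fell by 0.47. The 3 largest rises of the pathway were all ferredoxins, which pass electrons on to NADP, nitrite reductase and other enzymes. Ferredoxin-2 (NO05G02350†) had 151 and 166 CPM in N2, against 50.2 and 50.7 CPM in C0, a change of 1.65 ± 0.074, and the ferredoxins NO09G00110 and NO24G00440 rose by 0.57 and 0.48.

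Of 24 genes of chlorophyll synthesis found by description 19 rose and 2 fell, with a median of 0.76. Magnesium-protoporphyrin O-methyltransferase (NO05G04210), an enzyme of the branch that leads to chlorophyll, had 164 and 168 CPM in N2, against 57.6 and 48.1 CPM in C0, a change of 1.65 ± 0.077. Subunit ChlD of the magnesium chelatase (NO16G00200), which puts the metal into the ring, had 406 and 416 CPM in N2, against 174 and 170.0 CPM in C0, a change of 1.26 ± 0.049. Geranylgeranyl diphosphate reductase (NO10G02590), which makes the phytyl tail, had 1288 and 1321 CPM in N2, against 536 and 514 CPM in C0, a change of 1.31 ± 0.037. All 3 were higher in both N2 libraries, by between 2.39-fold and 3.15-fold. The entry step of the pathway did the opposite. Glutamyl-tRNA reductase (NO09G01210), the first committed step, had 295 and 297 CPM in N2, against 660.3 and 692 CPM in C0, a change of -1.19 ± 0.051. The cytoplasmic glutamate-tRNA ligase (NO08G02860), which KEGG also lists under porphyrins, fell by 1.23. In carotenoid synthesis 10 of 19 tested members rose and 5 fell, and the 2 violaxanthin de-epoxidases among them, which serve to shed excess light, moved apart. NO11G00920 had 76.2 and 76.6 CPM in N2, against 27.8 and 30.1 CPM in C0, and rose by 1.40, while NO03G00410 had 67.2 and 62.8 CPM in N2, against 131 and 129 CPM in C0, and fell. Protein LUTEIN DEFICIENT 5 (NO06G03910), a cytochrome P450 that hydroxylates carotenes in plants, had 59.8 and 59.8 CPM in N2, against 7.74 and 7.66 CPM in C0, and rose by 2.95.

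**Figure D4:**
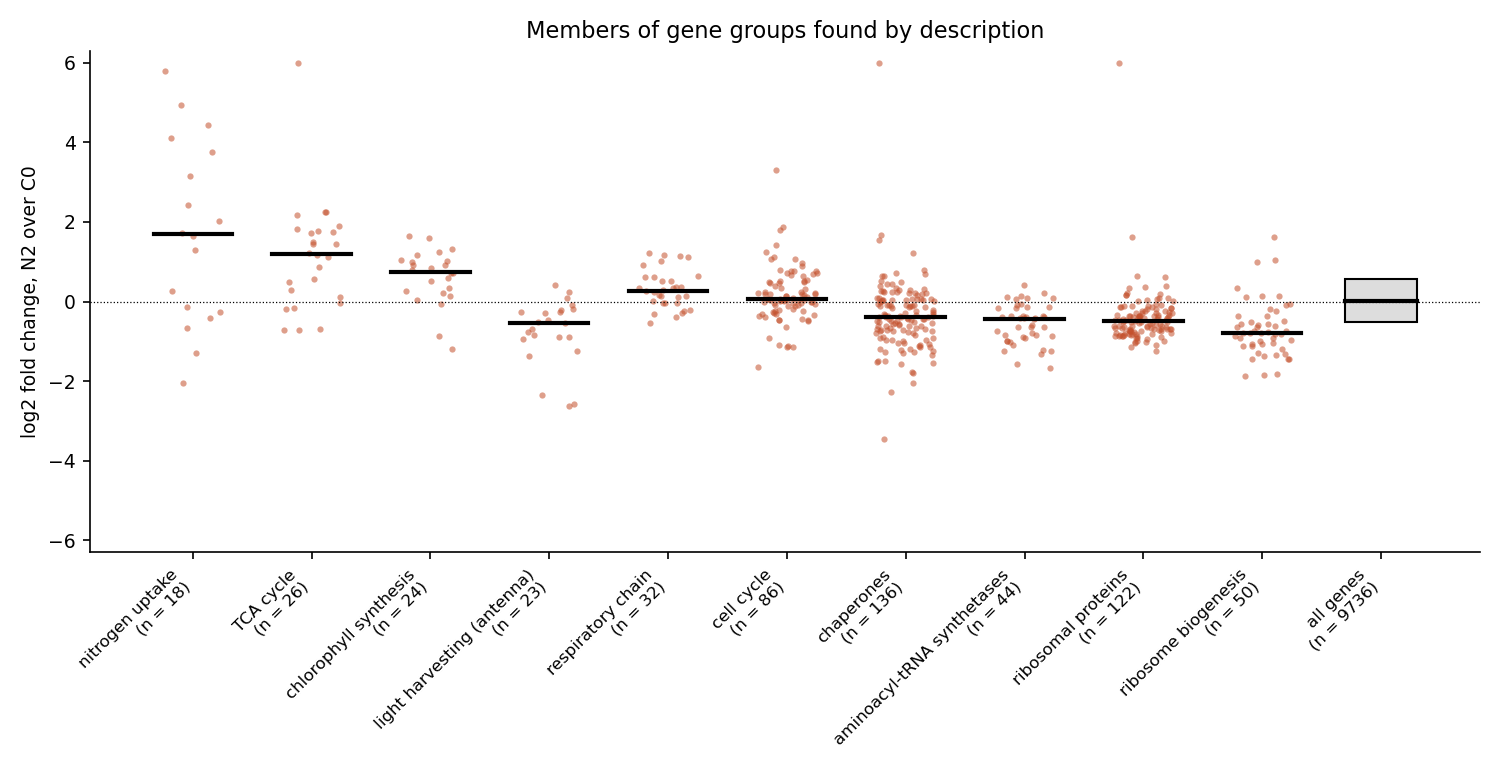
Log2 fold change of N2 over C0 of every tested member of 10 gene groups (points) with the group median (bar), beside all genes (box from the lower to the upper quartile). Most points of chlorophyll synthesis lie above 0 and most points of the antenna and ribosomal proteins below it, while the cell cycle genes lie on both sides. Values beyond 6 or -6 are drawn at the edge.

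Respiratory genes were higher on balance. In oxidative phosphorylation 30 of 55 tested members rose and 9 fell, with a median of 0.23, and the pathway held 2.12% and 2.15% of the counts of the N2 libraries, against 1.40% and 1.41% in C0. Part of that share lies in the proton ATPases of the plasma membrane, given further on, which KEGG lists there. Among 32 genes of the respiratory chain found by description 16 rose and 3 fell, with a median of 0.27. The mitochondrial alternative oxidase (NO02G00280†), which passes electrons to oxygen without pumping protons, had 195 and 192 CPM in N2, against 78.6 and 88.6 CPM in C0, a change of 1.21 ± 0.068. The external NADH-ubiquinone oxidoreductase 1 (NO05G04440), which oxidises NADH from outside the inner membrane, had 408 and 428 CPM in N2, against 193 and 181 CPM in C0, a change of 1.16 ± 0.053. A ubiquinol oxidase described as plastidial (NO15G02170) had 217 and 192 CPM in N2, against 92.5 and 93.6 CPM in C0, a change of 1.13 ± 0.068. All 3 of these side routes were more than 2-fold higher in both N2 libraries than in either C0 library. The alternative oxidase has a neighbour of the same description (NO02G00290†), and summed over both there were 708 and 714 CPM in N2, against 450.0 and 446 CPM in C0, a log2 ratio of 0.67. The mitochondrial ATP synthase beta subunit (NO11G01140) had 2406 and 2467 CPM in N2, against 1706 and 1736 CPM in C0, and rose by 0.50. The falls were small, the largest of the pathway being a plastidial inorganic pyrophosphatase (NO12G01220), with 104 and 99.0 CPM in N2, against 181 and 176 CPM in C0, a fall of under 2-fold. Without N2 replicate 1 a single gene of the respiratory chain list fell.

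Genes of protein synthesis were mostly lower in N2. Of the KEGG ribosome genes 4 of 115 tested members rose and 88 fell, with a median of -0.51, and they held 3.35% and 3.28% of the counts of the N2 libraries, against 4.97% and 4.99% in C0. The falls were mostly small, 6 being of at least 2-fold, and 2 ribosome genes rose in the fit without N2 replicate 1. The 60S ribosomal protein L7 (NO19G02480) had 446 and 447 CPM in N2, against 983 and 979 CPM in C0, a change of -1.14 ± 0.043. The 50S protein L34 (NO03G03180†), of the bacterial type, had 64.0 and 61.6 CPM in N2, against 149.7 and 148 CPM in C0, a change of -1.25 ± 0.072. The rises among the ribosomal proteins included the 30S protein S9 (NO05G02940†), with 38.1 and 42.2 CPM in N2, against 26.4 and 26.2 CPM in C0, whose neighbour NO05G02930† carries the same description and fell by 0.43. Under the GO term for the cytosolic small ribosomal subunit 0 of 22 tested genes rose and 21 fell, with a median of -0.69. Assembly of ribosomes fell further. Of 50 genes of ribosome biogenesis found by description 3 rose and 40 fell, with a median of -0.79, and under the GO term for the small-subunit processome 3 of 24 rose and 18 fell, with a median of -0.82. Midasin (NO04G00240), which strips assembly factors from the large subunit, had 111 and 112 CPM in N2, against 395 and 384 CPM in C0, a change of -1.80 ± 0.054. The nucleolar GTPase NSN1 (NO02G00810†) had 46.8 and 45.5 CPM in N2, against 155 and 161 CPM in C0, a change of -1.77 ± 0.071. Both were lower in N2, 3.49-fold and 3.41-fold.

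Of 44 aminoacyl-tRNA synthetases, which charge tRNAs, 2 rose and 33 fell, with a median of -0.43. Alanine-tRNA ligase (NO08G02150†) had 199 and 199 CPM in N2, against 645 and 617 CPM in C0, a change of -1.66 ± 0.049. Arginine-tRNA ligase (NO04G02920) had 149 and 149 CPM in N2, against 449 and 441 CPM in C0, a change of -1.58 ± 0.053. Of 59 translation factors 2 rose and 45 fell, with a median of -0.66. The larger rise was 1.93, at a locus with a neighbour of the same description that fell, and summed over both the log2 ratio was 1.61. Elongation factor 1-alpha (NO22G01450), which brings charged tRNA to the ribosome and was the most abundant transcript with a named function in C0 by FPKM, had 566 and 556 CPM in N2, against 824 and 844 CPM in C0, and fell by 0.57. The release factor subunit ERF3 (NO14G02430†), which ends translation, had 55.8 and 56.9 CPM in N2, against 198 and 182 CPM in C0, and fell by 1.75. The translation initiation factor IF-3 (NO23G01740), of the bacterial type used in organelles, had 274 and 257 CPM in N2, against 189 and 187 CPM in C0, and rose by 0.50. KOG class J, translation and ribosome, held the lowest median of the 23 KOG classes, -0.45, with 38 rises and 239 falls among 351 tested genes. Classes A (RNA processing) and K (transcription) followed the same way, with 52 rises and 157 falls among 289 genes and 62 rises and 120 falls among 250. In the spliceosome 19 of 129 tested members rose and 64 fell, and in RNA transport 11 of 97 tested members rose and 52 fell. Without C0 replicate 2, 10 spliceosome genes, 7 genes of RNA transport and 1 synthetase rose. Without N2 replicate 1, 5 genes of RNA transport rose, and without N2 replicate 2, 1 synthetase.

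More genes of storage and wall polysaccharides rose than fell. In starch and sucrose metabolism 24 of 42 tested members rose and 7 fell, with a median of 0.46, and under the GO term for hydrolysis of O-glycosyl compounds 34 of 60 rose and 12 fell. The starch and sucrose pathway nevertheless held less of the counts in N2, 0.623% and 0.618%, against 0.748% and 0.754% in C0. The storage polysaccharide list found by description held more, 0.722% and 0.716% in N2, against 0.623% and 0.616% in C0. Cellulose synthase 1 catalytic subunit (NO07G03720), which lays down the cellulose of the cell wall, had 437 and 436 CPM in N2, against 117 and 115 CPM in C0, a change of 1.91 ± 0.052. Endoglucanases, which cut glucan chains, were divided. NO10G03870 had 42.4 and 44.2 CPM in N2, against 8.73 and 10.9 CPM in C0, and rose by 2.13, and NO17G00920† had 234 and 237 CPM in N2, against 66.7 and 52.8 CPM in C0, and rose by 1.98. NO13G03350, with 209.8 and 214 CPM in N2, against 691 and 672 CPM in C0, fell by 1.68. Beta-glucosidase 4 (NO29G01640), which releases glucose from short glucans and was among the 10 most abundant named transcripts of C0, had 394 and 414 CPM in N2, against 2596 and 2624 CPM in C0, a change of -2.69 ± 0.039.

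Genes of protein turnover differed by system. Of 51 genes of vacuolar sorting and proteases 31 rose and 10 fell, with a median of 0.49, and of 19 autophagy genes 10 rose and 2 fell, with a median of 0.31, and without C0 replicate 1 a single autophagy gene fell. Autophagy-related protein 13a (NO16G02570†), which helps to start the process, had 257 and 259.7 CPM in N2, against 117 and 116 CPM in C0, a change of 1.15 ± 0.065, and autophagy-related protein 101 (NO12G00140), its partner, rose by 1.03. Autophagy protein 5 (NO22G01960), which serves in expanding the membrane, had 17.0 and 13.9 CPM in N2, against 26.0 and 23.4 CPM in C0, and fell by 0.67. Vacuolar protein sorting-associated protein 1 (NO18G01580†), a dynamin that pinches off vesicles, had 123 and 107 CPM in N2, against 14.5 and 17.0 CPM in C0, a change of 2.86 ± 0.11. The proteasome stood near all genes, with 16 of 45 tested members of the KEGG pathway rising, 11 falling and a median of -0.0029. Without C0 replicate 2, 7 proteasome genes fell. Chaperones were lower, with 22 of 136 rising and 83 falling and a median of -0.39. A small heat shock protein (NO18G01280) had 106 and 97.2 CPM in N2, against 485 and 495 CPM in C0, a change of -2.27 ± 0.065. A DnaJ homolog (NO17G01940†), a helper of Hsp70, had 191 and 178 CPM in N2, against 656 and 628 CPM in C0, and fell by 1.80. A class I heat shock protein (NO20G02130†), among the 10 most abundant named transcripts of both groups, hardly moved, with 1248 and 1290.1 CPM in N2, against 1354 and 1347 CPM in C0 (edgeR adjusted p = 0.028), and was not called without C0 replicate 1, C0 replicate 2 or N2 replicate 1 (edgeR adjusted p of 0.0896, 0.0717 and 0.118). Heat shock factor protein 1 (NO12G00520), a transcription factor that drives chaperone genes in other species, had 803 and 819 CPM in N2, against 343 and 351 CPM in C0, and rose by 1.22.

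Genes of the cell cycle and of DNA replication went both ways, as did genes as a whole, of which 35% rose and 34.9% fell. Of 86 cell cycle genes 28 rose (32.6%) and 20 fell (23.3%), with a median of 0.069. In the KEGG DNA replication pathway 18 of 40 tested members rose (45%) and 7 fell (17.5%), with a median of 0.28. The condensin-2 subunit D3 (NO11G01790), which compacts chromosomes, had 103 and 93.8 CPM in N2, against 38.5 and 35.6 CPM in C0, a change of 1.41 ± 0.10. Aurora kinase A-A (NO06G03710†), of mitosis, rose by 1.26, and the DNA polymerase alpha subunit B (NO01G00290†), which starts new strands, by 1.12. Cyclin-U3-1 (NO14G02130) was among the falls, with 951 and 962 CPM in N2, against 2113 and 2078 CPM in C0, a change of -1.13 ± 0.036. Among 13 histones 4 rose and 5 fell, with the packaging protein H3.2 (NO14G01290) at 116 and 105 CPM in N2, against 48.4 and 54.8 CPM in C0. H2A-IV (NO10G02070) was lower in N2, at 20.5 and 18.5 CPM in N2, against 36.1 and 35.0 CPM in C0. Of 45 genes that modify histones 10 rose and 18 fell. Lysine-specific demethylase 5A (NO29G00780), which removes methyl groups from histone H3 in other species, had 209 and 214 CPM in N2, against 85.3 and 86.0 CPM in C0, and rose by 1.30. The histone-lysine methyltransferase SMYD3 (NO05G03230) had 10.2 and 10.9 CPM in N2, against 52.4 and 53.0 CPM in C0, and fell by 2.32.

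Some genes named after flagellar transport were among the largest falls, although cells of this genus are known as non-motile. Intraflagellar transport protein 140 (NO13G00050), which carries cargo along flagella in other species, had 3.55 and 3.21 CPM in N2, against 55.6 and 50.2 CPM in C0, a change of -3.96 ± 0.19. The kinesin FLA10 (NO09G02420†), a motor for that transport, had 7.24 and 7.34 CPM in N2, against 45.5 and 45.2 CPM in C0, a change of -2.63 ± 0.17. Both were low transcripts in N2, under 10 CPM. Flagellar genes did not fall as a group, since under the GO term for the motile cilium 16 of 43 tested genes rose and 15 fell, with a median of -0.01. Over all 97 motor and cytoskeleton genes found by description 38 rose and 32 fell, with a median of 0.13. Leaving aside transcripts that averaged under 10 CPM, the largest rise of that list was in a signalling enzyme, myosin light chain kinase A (NO30G00930), with 623 and 621 CPM in N2, against 33.9 and 37.5 CPM in C0, a change of 4.12 ± 0.057.

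Ion transport and signalling held several of the most extreme changes. Probable proton ATPase 1B (NO17G00440), a pump that energises uptake across the plasma membrane, had 2408 and 2477 CPM in N2, against 48.0 and 44.6 CPM in C0, a change of 5.72 ± 0.037. Proton ATPase 1A (NO12G00390†) had 1420.3 and 1441 CPM in N2, against 60.5 and 59.0 CPM in C0, a change of 4.58 ± 0.038, and summed with its neighbour of the same description (NO12G00380†) there were 2717 and 2878 CPM in N2, against 425 and 418 CPM in C0, a log2 ratio of 2.73. A tandem-pore potassium channel was annotated at NO29G01700†, with 236 and 241 CPM in N2, against 1.39 and 1.15 CPM in C0. Its neighbour NO29G01710†, of the same description, had 60.0 and 67.9 CPM in N2, against 0.199 and 0.766 CPM in C0. The first of these channel loci rose by 7.53 and the second by 6.97, and both had only a few reads in each C0 library. A vesicle-fusing ATPase (NO03G05540), which recycles membrane fusion complexes, had 2182 and 2187 CPM in N2, against 62.7 and 53.0 CPM in C0, and rose by 5.24. The E3 ubiquitin ligase RNF13 (NO15G00460) had 169 and 176 CPM in N2, against 4.76 and 4.21 CPM in C0, and rose by 5.26.

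Falls were as sharp. A calcium-transporting ATPase (NO16G02820†) had 54.2 and 52.4 CPM in N2, against 1123 and 1141 CPM in C0, a change of -4.41 ± 0.090. Summed with its neighbour of the same description NO16G02830† there were 135 and 137 CPM in N2, against 1259 and 1276 CPM in C0, a log2 ratio of -3.22. The phosphate permease PHO89 (NO24G00190), which takes up phosphate with sodium in yeast, had 7.83 and 7.18 CPM in N2, against 125 and 130.0 CPM in C0, a change of -4.08 ± 0.13. A further phosphate transporter (NO16G01940) had 207 and 214 CPM in N2, against 523 and 534 CPM in C0, a change of -1.33 ± 0.047. The low affinity sulfate transporter 3 (NO11G01800) had 133 and 131 CPM in N2, against 575 and 563 CPM in C0, a change of -2.11 ± 0.055. Over the phosphate transport list 2 of 8 tested members rose and 4 fell, and over the sulfate list 2 of 9 tested members rose and 5 fell. Of the phosphate list the SPX domain protein 1 (NO06G00660), of a family that senses phosphate in plants, rose by 0.37, and a probable sulfate transporter 4.2 (NO17G02590) rose by 0.97. The other rise of the phosphate list was a low transcript with a neighbour of the same description that fell. In the sulfate list sulfite reductase (NO16G01010), of sulfate assimilation, had 3364 and 3449.6 CPM in N2, against 1356 and 1356 CPM in C0, and rose by 1.33. A persulfide dioxygenase of the ETHE1 type (NO03G04040), which oxidises sulfide in mitochondria, was among the 10 most abundant named transcripts of N2, with 2712 and 2767 CPM in N2, against 715 and 687 CPM in C0, a change of 1.97 ± 0.029. The kinase CIPK8 (NO25G01890), which partners calcium sensors and takes part in nitrate signalling in Arabidopsis, had 689 and 674 CPM in N2, against 6886 and 6879.8 CPM in C0, a change of -3.34 ± 0.028. CIPK32 (NO30G00580) had 21.4 and 21.4 CPM in N2, against 269.9 and 246 CPM in C0, a change of -3.59 ± 0.093. These kinases were lower in N2, both by at least 10.1-fold, and CIPK8 was among the 10 most abundant named transcripts of C0 by FPKM. Calcium/calmodulin-dependent protein kinase type IV (NO11G01760) had 275 and 278 CPM in N2, against 47.6 and 42.9 CPM in C0, and rose by 2.61. Over the 153 protein kinases 67 rose and 55 fell, and over the 68 transcription factors 23 rose and 27 fell. The transcription factor MYB3R-5 (NO23G00850†), of a family that controls mitotic genes in plants, had 81.7 and 83.1 CPM in N2, against 20.2 and 20.3 CPM in C0, and rose by 2.02. Myb-like protein A (NO25G01500) had 42.7 and 38.4 CPM in N2, against 149 and 155 CPM in C0, and fell by 1.91.

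Some loci had counts in a single group. With a named function and at least 10 CPM in each library of the other group, 10 loci had no count in either C0 library and 10 had none in either N2 library, and all 20 had fractional counts in at least some libraries. The floor used for the bounds here is 3 counts per library and covers counting error only. Cytochrome P450 97B3 (NO02G03220†), which in plants hydroxylates carotene rings, had 75.3 and 80.8 CPM in N2 and 0 in both C0 libraries, at least 134-fold higher. Its neighbour NO02G03210† has the same description, and summed over both there were 403 and 438 CPM in N2, against 207 and 218 CPM in C0, a log2 ratio of 0.98. Purine nucleoside phosphorylase 1 (NO05G01230†), which frees purine bases from nucleosides, had 32.2 and 37.3 CPM in N2 and 0 in C0, at least 59.4-fold higher, but with its neighbour of the same description NO05G01220† the sums were 233 and 226 CPM in N2, against 108 and 119 CPM in C0, a log2 ratio of 1.01. The probable vacuolar protease A (NO15G01050†) had 0 CPM in N2, against 69.1 and 68.0 CPM in C0, at least 152-fold lower. A Gag-Pol polyprotein of a Ty3 transposon (NO08G02500†) had 0 CPM in N2, against 96.9 and 53.8 CPM in C0. Of the 20 loci 11 stood next to a locus of the same description. Chorismate mutase (NO03G02340†), which opens the branch to phenylalanine and tyrosine, had 0 CPM in N2, against 46.8 and 46.0 CPM in C0. Its neighbour NO03G02330† had 139.6 and 144 CPM in N2, against 85.3 and 85.8 CPM in C0, and the sums over both were 139.6 and 144 CPM in N2, against 132 and 132 CPM in C0. The beta type-2-B subunit of the proteasome (NO11G02570†) had 20.83 and 20.02 CPM in N2 and 0 in C0, but together with its neighbour NO11G02560† it had 159 and 159 CPM in N2, against 359.6 and 352 CPM in C0. Among 258 pairs of adjacent loci with the same description 45 had calls in opposite directions, and 44 of these 45 pairs had fractional counts. The part that dividing reads between copies had in such changes was not tested.

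Genes without a named function took part in the changes as well. Of 3935 such genes 35.9% rose and 30.0% fell, and of 5801 genes with a named function 34.4% rose and 38.2% fell. Rises of at least 4-fold were in 4.14% of the genes without a named function and in 2.6% of those with a named function. The share of genes called went up with level, and was 42.1% among genes under 10 CPM on average and 97.3% among the 75 most abundant genes. By chromosome the share of tested genes that rose lay between 29.7% (chromosome 24) and 41% (chromosome 30), and the share that fell between 25.6% (chromosome 29) and 42% (chromosome 23).

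Day 2 was then set against day 1 directly, in the same fit of all 6 libraries. The C0 libraries thus took part in the filter, the scaling and the estimate of spread, but are not a side of this comparison. In N2 over N1, 5634 genes changed (57.9%) in the edgeR fit, of which 2861 rose (29.4%) and 2773 fell (28.5%). With library totals alone in place of TMM the split was 3444 rises and 2195 falls. Rises of at least 2-fold were seen in 847 genes (8.7%) and falls of that size in 356 (3.66%), and changes of at least 4-fold in 101 genes that rose (1.04%) and 66 that fell (0.678%). Ribosomal proteins were mostly higher at day 2 than at day 1, though lower than at day 0. Of the KEGG ribosome genes 78 of 115 rose and 9 fell in N2 over N1, with a median of 0.45. Protein L7 (NO19G02480) had 446 and 447 CPM in N2, against 319.5 and 333 CPM in N1, a change of 0.45 ± 0.044. Elongation factor 1-alpha (NO22G01450) had 566 and 556 CPM in N2, against 311 and 284 CPM in N1, a change of 0.91 ± 0.050. The N2 libraries lay above the N1 libraries in both genes and, as given above, below the C0 libraries. Proteasome genes rose likewise, with 33 of 45 rising, 7 falling and a median of 0.58. Of the motor and cytoskeleton genes 55 of 97 rose and 12 fell, with a median of 0.61, and of the 86 cell cycle genes 39 rose and 9 fell, with a median of 0.29. Ribosome biogenesis did not do so, with 5 of 50 rising, 31 falling and a median of -0.28. The phosphate permease PHO89 (NO24G00190) had 7.83 and 7.18 CPM in N2, against 0 and 0.426 CPM in N1, and rose (edgeR adjusted p = 1.3e-06), being at or near 0 at day 1 and low at day 2. The cGMP-dependent protein kinase 1 (NO10G01760) had 3.25 and 3.36 CPM in N2, against 0.991 and 0.426 CPM in N1, a change of 2.17 ± 0.48, against 27.4 and 31.6 CPM in C0.

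**Figure D5:**
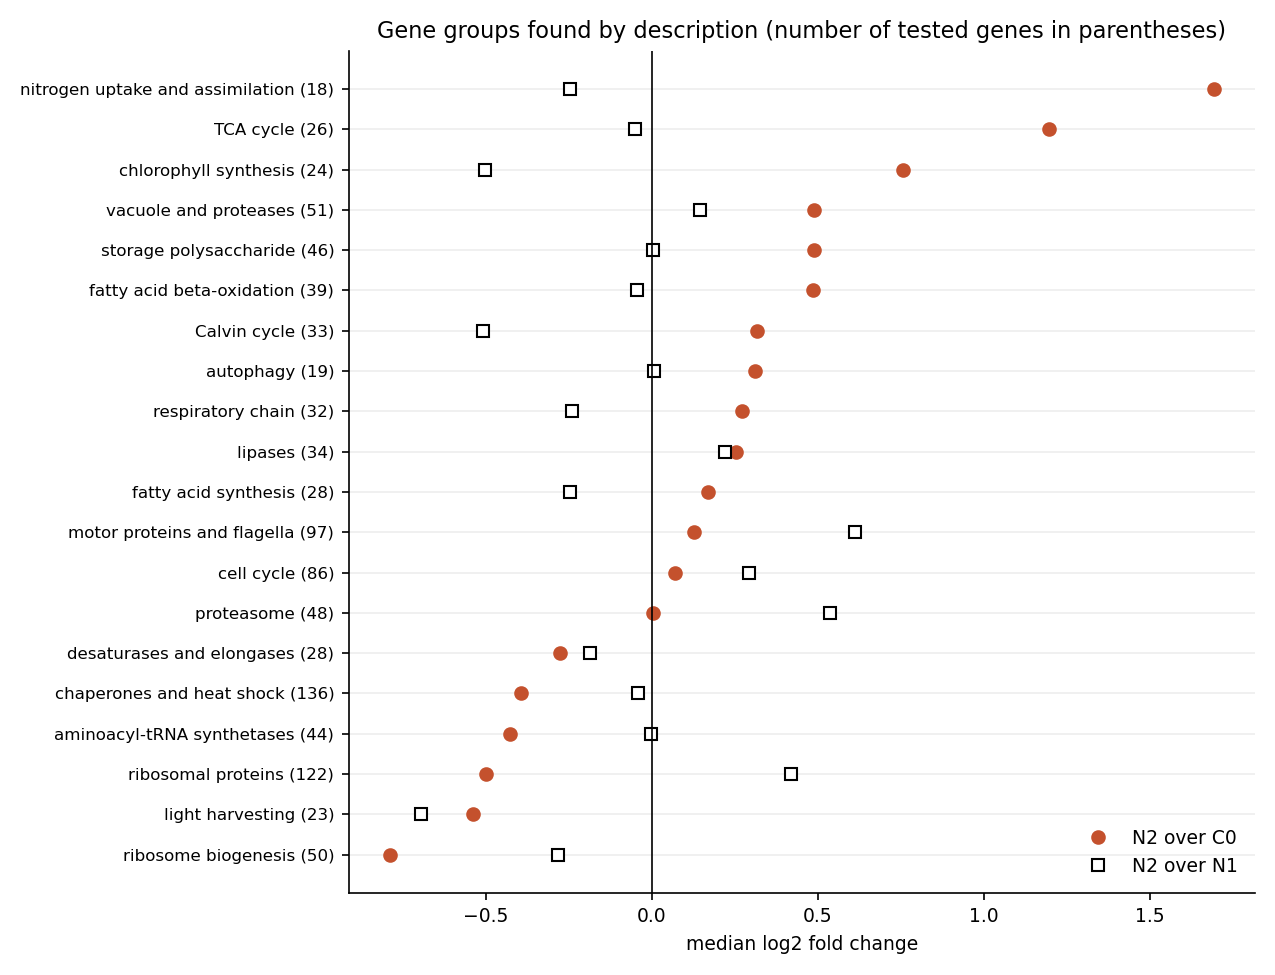
Median log2 fold change of 20 gene groups, picked after their values were seen, for N2 over C0 (filled circles) and N2 over N1 (open squares), ordered by the first. The ribosomal proteins have a negative median against C0 (-0.50) and a positive median against N1 (0.42), while the antenna proteins are negative against both.

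Antenna proteins were lower again at day 2, with 0 of 24 rising and 23 falling in N2 over N1 and a median of -0.72. Chlorophyll synthesis had 1 rise and 17 falls among 24 genes, with a median of -0.50. The ferredoxin NO09G00110 had 117 and 107 CPM in N2, against 375 and 377 CPM in N1, a change of -1.75 ± 0.058. In fatty acid biosynthesis 5 of 26 rose and 16 fell, with a median of -0.47. The delta-12 desaturase (NO11G02480) had 79.3 and 76.6 CPM in N2, against 354 and 366 CPM in N1, a change of -2.21 ± 0.053, and the 3-oxoacyl synthase 3 (NO28G00420) had 35.0 and 38.5 CPM in N2, against 175 and 175 CPM in N1, a change of -2.25 ± 0.075. Lipid synthesis genes that were above C0 were thus in part below N1. The lipid droplet surface protein (NO11G02550) had 3268 and 3217 CPM in N2, against 6152 and 6338 CPM in N1, a change of -0.95 ± 0.023, and acetyl-CoA carboxylase (NO09G00220) had 1519 and 1641 CPM in N2, against 2759 and 2709.8 CPM in N1, a change of -0.79 ± 0.037. The triacylglycerol lipase SDP1 (NO10G00490) did the opposite, with 114 and 107 CPM in N2, against 67.4 and 79.5 CPM in N1, a change of 0.59 ± 0.081.

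Proton ATPase 1B (NO17G00440), given above under ion transport, had 2408 and 2477 CPM in N2, against 6044 and 6079 CPM in N1, a change of -1.31 ± 0.028. The nitrogen genes did not move as a block between the days. The ammonium transporter NO09G03110 had 5604 and 6073 CPM in N2, against 13425 and 13113 CPM in N1, a change of -1.18 ± 0.028. The nitrate transporter NO14G02450 went the other way, with 11299.8 and 11321 CPM in N2, against 7599 and 7613 CPM in N1, a change of 0.57 ± 0.016, and the molybdenum cofactor protein NO24G02300 had 2629 and 2473 CPM in N2, against 962 and 929 CPM in N1, a change of 1.43 ± 0.040. In the list for nitrogen uptake and assimilation 6 of 18 rose and 9 fell in N2 over N1, with a median of -0.25. In the citrate cycle 7 of 37 rose and 19 fell, with a median of -0.23, and in oxidative phosphorylation 3 of 55 rose and 36 fell, with a median of -0.33.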

How the data were processed

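The deposited data were messenger RNA-seq tables of 6 libraries, 2 each of N2, N1 and C0, although the labels speak of more replicates than the 2 per group used here. According to the submitters' processing notes and the study's methods, the authors trimmed reads with Trim Galore, aligned them with STAR to the IMET1 genome, marked duplicates with Picard, counted with featureCounts and assembled with StringTie (versions not given in the sources used here). The authors deposited an estimated count per gene, with decimals. They also deposited TPM, from which no value was taken, and FPKM, used to rank genes by abundance. Further deposited tables hold the authors' log2 fold change, p-value and FDR per gene from edgeR and were not used.

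Estimated counts were rounded to whole numbers, where the planned design had assumed whole counts. The genes kept reached 1 CPM in 2 or more libraries. Counts were scaled by TMM and tested by quasi-likelihood F-tests in edgeR 4.0.16 (R 4.3.3, limma 3.58.1) with 1 term per group over all 6 libraries. SEs are approximate, taken from the log2 fold change and its test statistic. Library totals lay between 4875888 and 6523021 counts, and 78.9% to 80.1% of the estimated counts per library were whole within 0.005. By the study's methods the libraries were not strand-specific, so genes that overlap on opposite strands cannot be told apart by strand. On simulated counts for N2 against C0, with 9683 genes in the step, the fit recovered 75.8% of 66 genes changed 1.5-fold, 92.5% of 67 changed 2-fold and 98.5% of 66 changed 4-fold. That simulation changed 200 genes and gave every gene the same spread, whereas 69.9% of the genes were called in the data. These shares are therefore no measure of power in the real comparison. Alternatives were DESeq2 1.42.0 and its size factors, library totals alone, other filters, only genes with whole counts, only the libraries compared, a replicate block, and leaving out each library. Tables and figures were made with Python 3.11.15, pandas 2.3.3, numpy 2.4.6 and matplotlib 3.10.9.

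Gene groups came from the KEGG pathway, GO and KOG columns and from searches of the descriptions. The members and lists were chosen with earlier results of these data known. Genes were named by a rule. From each group described it took up to 3 called rises and 3 called falls of largest size with a mean of at least 10 CPM over the N2 and C0 libraries. To these it added the lipid genes the study names, the 15 largest rises and falls with a named function, the 10 most abundant named transcripts of each group by FPKM, loci at 0 in 1 group, and genes among these that moved back or by at least 4-fold against N1. A few others are marked in the text as chosen after their values were seen.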

Additional observations from a re-analysis of the deposited data

Results flagged for a closer look

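The change between days 1 and 2 was tested directly as N2 over N1, and it differed from 0 for many genes (edgeR adjusted p below 0.05), 2861 rising and 2773 falling. Since both groups were set against the same C0 libraries, this test of N2 over N1 is also the test of the difference between their changes from C0. Among the genes named above with an average of more than 3 counts per library in both N2 and N1, 6 changed at least 4-fold between the days. The delta-12 desaturase NO11G02480 had a log2 fold change of N2 over N1 of -2.21, and the acyl-lipid desaturase NO28G00700 one of -2.08. The 3-oxoacyl synthases NO04G04430 and NO28G00420 had -2.06 and -2.25. The malate dehydrogenase locus NO05G03790, with 26.1 and 29.2 CPM in N2, against 6.15 and 4.48 CPM in N1, had 2.37, and the cGMP-dependent protein kinase NO10G01760, low in both, had 2.17.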

How the results depend on the processing

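Each of the 6 counts of genes changed stayed within 1.5 times its value under all 14 alternatives. Leaving out each library in turn gave 3030 to 3431 rises and 3001 to 3425 falls of N2 over C0, 1307 to 1355 and 987 to 1066 of these being at least 2-fold, and 2320 to 2833 rises and 2410 to 2735 falls of N2 over N1. The DESeq2 test called 2810 rises and 2827 falls of N2 over C0, and 2009 and 2290 of N2 over N1. With library totals alone the median of all genes in N2 over N1 was 0.0994, and 61.1% of the calls were rises, against 50.8% with TMM. Samples with the same replicate number did not deviate together, with correlations of their differences of -0.031 (C0 and N1), 0.046 (C0 and N2) and -0.064 (N1 and N2). No pairing by number was thus seen, but the check cannot exclude it, since these differences also hold counting error. With the replicate block 3351 genes rose and 3338 fell in N2 over C0, 1341 and 1048 by at least 2-fold, and 2810 rose and 2717 fell in N2 over N1. Of 188 genes named, none changed direction under any alternative, and 5 lost their call under at least 1 of them, 17 of 2563 values in all, none of these under the block. Those genes are NO03G00560, NO05G02060, NO19G01880, NO20G02130 and NO30G00840. Of 1288 counts of list members under the alternatives 45 differed by more than 1.5 times, most often where only genes with whole counts were kept, which tests fewer genes. The medians of the proteasome, glycerolipid assembly and sterol synthesis in N2 over C0, all near 0, took either sign. In N2 over N1 medians of further groups did so, among them starch and sucrose metabolism, RNA transport, autophagy and the aminoacyl-tRNA synthetases. Low levels limit the rest, since only 42.1% of genes under 10 CPM were called.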

Other observations

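Gene groups not described above held single genes with large changes of N2 over C0. Of 65 antioxidant enzymes 18 rose (27.7%) and 25 fell (38.5%), with a median of 0.053. Over all genes tested 35% rose and 34.9% fell. The thioredoxin TTL1 (NO04G04630), a redox protein with protein-binding repeats, had 1330.1 and 1281 CPM in N2, against 95.9 and 90.8 CPM in C0, a change of 3.81 ± 0.046 (edgeR adjusted p = 2.85e-17). Peroxiredoxin Q (NO07G00250), which removes peroxides in plastids of plants, had 22.6 and 22.2 CPM in N2, against 57.2 and 52.8 CPM in C0, and fell by 1.30. Of 153 genes of ubiquitin ligation and conjugation 50 rose and 50 fell (32.7% each), near the shares over all genes. The ubiquitin receptor DSK2a (NO14G02920), whose counts were fractional, had 329 and 305 CPM in N2, against 1102 and 1054 CPM in C0, and fell by 1.77. Under the GO term for iron-sulfur cluster binding 45 of 74 tested genes rose and 17 fell, with a median of 0.35, and under that for the Golgi membrane 13 of 28 rose and 4 fell, with a median of 0.45.

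Sugar carriers were lower on balance, while the pentose phosphate pathway differed by list. Of 10 sugar transporters 2 rose and 7 fell, and 1 rose without C0 replicate 1, C0 replicate 2 or N2 replicate 1. The facilitated glucose transporter 1 (NO07G01480) had 101 and 106 CPM in N2, against 249.7 and 226 CPM in C0, 2.30-fold lower in N2. The bidirectional sugar transporter SWEET11 (NO05G00560) had 40.2 and 43.7 CPM in N2, against 25.8 and 20.5 CPM in C0, and rose by 0.86. Of 9 genes found by description for the pentose phosphate pathway, which yields NADPH and pentoses, 2 rose and 5 fell, with a median of -0.52, whereas in the KEGG pathway of that name 18 of 36 tested members rose and 7 fell, with a median of 0.27. In sterol synthesis 6 of 21 rose and 6 fell, and hydroxymethylglutaryl-CoA synthase A (NO08G03590), at the entry of the mevalonate route, had 255 and 227 CPM in N2, against 103 and 94.6 CPM in C0, and rose by 1.28. Without N2 replicate 2, 3 sterol genes rose. Loci whose identifier carries no chromosome number took 0.658% and 0.671% of the counts of the N2 libraries, against 1.05% and 0.968% in C0.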
